A study of Drosophila melanogaster with 2 samples.

Results

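Head-to-head pairs of protein-coding promoters held 826 of the 7534 conservative Xrp1-eGFP peaks on the X, 2L, 2R, 3L, 3R and 4 arms, or 11.0% (95% Wilson interval 10.3% to 11.7%). A peak belonged to this set when its summit lay within 500 bp of a transcription start site (TSS) of at least 2 protein-coding genes on opposite strands, with the minus-strand TSS to the left of the plus-strand TSS. Another 12 summits met these conditions but were dropped because a noncoding RNA gene started within 500 bp. The 826 peaks fell on 779 distinct pairs and 1558 genes, so 11.2% of the 13945 protein-coding genes on these arms belonged to a pair with a peak. A pair held 1 peak in 733 cases, 2 peaks in 45 cases and 3 peaks in 1 case, and for 44 peaks more than 1 pair was possible, of which the pair with the smallest summed distance to both TSSs was taken.

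The study mapped where Xrp1 sits on embryonic chromatin by chromatin immunoprecipitation and sequencing (ChIP-seq). Its 1 group had 2 biological replicates of whole Drosophila melanogaster embryos aged 8 to 24 hours, of the strain Xrp1-GFP, whose insertion targets Xrp1 and yields an Xrp1-eGFP fusion that was pulled down through GFP. Chromatin had been sheared by sonication to 200 to 800 bp, and an experiment listed as a possible control was not analysed here. Each replicate was made from whole organisms, so cells of every tissue are mixed, and no comparison between genotypes, stages or treatments was possible. The files hold peaks without read counts, so read depth is unknown, and the tests below compare classes of peaks or promoters of this 1 experiment and cover counting error only.

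Divergent promoters are pairs of genes transcribed away from each other from a shared, usually nucleosome-poor stretch of DNA. They are common in compact genomes such as that of Drosophila, and many of the genes they serve have housekeeping roles. Xrp1 is a basic leucine zipper factor with an AT-hook, a short peptide that contacts the minor groove of AT-rich DNA. It forms heterodimers with the C/EBP-family protein Irbp18 and acts in DNA damage responses, translation stress and cell competition.

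The summit sequences of the strongest peaks show what the bound stretch at such pairs looked like. Each line gives a summit with 50 bp on each side, 5′ to 3′ on the plus strand of dm6, read from the RefSeq copy of that assembly. The first 6 are the strongest peaks of the set for which sequence is shown, and none of them held TTGCNNAA, the C/EBP-type word, or TATCGATA, the core of the DNA replication-related element (DRE) bound by the factor Dref.
Tcs5/CHMP2B, chr3L:5139456-5139556: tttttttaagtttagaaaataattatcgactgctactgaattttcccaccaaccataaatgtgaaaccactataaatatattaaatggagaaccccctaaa
Art3/mRpS10, chr3R:15229478-15229578: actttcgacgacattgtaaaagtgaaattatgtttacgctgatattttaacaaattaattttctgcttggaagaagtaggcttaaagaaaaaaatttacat
Chro/Ssl1, chr3L:22878845-22878945: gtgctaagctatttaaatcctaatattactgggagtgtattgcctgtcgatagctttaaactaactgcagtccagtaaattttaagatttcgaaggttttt
CG5611/Mtl, chr3R:27636129-27636229: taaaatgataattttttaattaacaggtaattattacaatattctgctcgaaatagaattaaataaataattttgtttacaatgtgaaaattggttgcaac
mRpS23/CenG1A, chr2L:13835412-13835512: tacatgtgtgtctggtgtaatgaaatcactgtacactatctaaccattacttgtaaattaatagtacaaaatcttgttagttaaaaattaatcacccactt
CG7601/CIA30, chr3R:29736795-29736895: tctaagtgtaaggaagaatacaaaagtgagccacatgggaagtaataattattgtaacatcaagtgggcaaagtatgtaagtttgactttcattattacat
The next 4 are the strongest of these peaks with TTGCNNAA on either strand, which is in capitals.
Mnat9/CG1792, chr3R:31616117-31616217: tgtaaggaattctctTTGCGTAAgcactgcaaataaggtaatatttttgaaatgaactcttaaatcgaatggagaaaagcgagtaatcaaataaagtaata
Reps/l(2)gd1, chr2L:11106776-11106876: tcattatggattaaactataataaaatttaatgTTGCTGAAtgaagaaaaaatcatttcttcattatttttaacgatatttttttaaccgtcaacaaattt
fws/Lamtor3, chr2L:17481080-17481180: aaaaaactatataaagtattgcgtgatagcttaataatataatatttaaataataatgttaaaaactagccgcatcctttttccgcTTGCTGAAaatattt
140up/Polr2B, chr3R:14125651-14125751: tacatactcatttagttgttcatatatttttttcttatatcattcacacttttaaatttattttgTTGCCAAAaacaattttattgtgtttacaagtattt
The last 2 are the strongest with TATCGATA, again in capitals.
dsd/Tusp, chr3R:27607430-27607530: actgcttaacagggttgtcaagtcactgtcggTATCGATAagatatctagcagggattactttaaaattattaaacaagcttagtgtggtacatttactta
l(3)04053/CG7369, chr3L:22741600-22741700: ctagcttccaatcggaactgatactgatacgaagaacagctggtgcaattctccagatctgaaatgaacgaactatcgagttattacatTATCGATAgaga
The 6 strongest windows were 19.8% to 33.7% GC. Of the windows shown, the strongest with TATCGATA had rank 1788 among the 7534 peaks by signal, and the strongest with TTGCNNAA had rank 58.

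Signal is the authors' own peak value, on a scale of theirs, and each peak is given with its signal in the list of both replicates and then with that of its matching peak in replicate 1 and in replicate 2. The peak between Tcs5, the kinase of the KEOPS complex that modifies tRNA, and CHMP2B, an ESCRT-III subunit, had a signal of 2294, with 1468 in replicate 1 and 830 in replicate 2. Between Art3, an arginine methyltransferase, and mRpS10, a protein of the small mitochondrial ribosomal subunit, the signal was 2278, with 1515 and 770 in the replicates. These 2 summits lay 1 and 8.5 bp from the middle of gaps of 224 and 257 bp between the TSSs. At Chro, which encodes a chromatin protein of polytene interbands, and Ssl1, a subunit of the general factor TFIIH, the signal was 2255, with 1448 and 817 in the replicates. That summit lay outside the gap of 105 bp, 89 bp downstream of the Chro TSS.

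The next strongest peak stood between CG5611 and Mtl, a Rac-type GTPase gene, with a signal of 2139 and replicate signals of 1364 and 729. The peak between mRpS23, another mitochondrial ribosomal protein gene, and CenG1A, an Arf GTPase regulator, had a signal of 2059, with 1381 and 678 in the replicates. At CG7601 and CIA30, which encodes an assembly factor of respiratory complex I, the signal was 2003, with 1299 and 764 in the replicates. In all 6 of these peaks replicate 1 had the higher value, as it had for most peaks of the set. The other 9 of the 15 strongest peaks had signals of 1230 to 1620. They stood at CG13390 and CG17294, CG3437 and CG3552, mRpL23 and CG9004, Pex11ab and CG8320, Fbw5 and CG9147, tank and CG12194, CG8372 and CG8360, CG1275 and Elp5, and Mnat9 and CG1792. Among these genes, Pex11ab encodes a peroxisome membrane protein, Elp5 a subunit of the tRNA-modifying Elongator complex and Mnat9 an N-acetyltransferase of microtubules.

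Signals over the set ran from 2.45 to 2294, with a median of 151.4 against 131 over the 1366 peaks just upstream of unpaired coding TSSs, which are the most similar class. The median was 122 over the 4557 peaks with no TSS within 500 bp. Of the set, 288 peaks (34.9%) were in the strongest 25% of all conservative peaks, with a signal of at least 210.5, against 414 unpaired upstream peaks (30.3%). The difference of 4.56 percentage points passed a two-sided Fisher's exact test (p = 0.0298), but it was 1.31 points (p = 0.633) among the peaks called in replicate 2 alone and 3.44 points (p = 0.0916) among those of replicate 1. With a TSS distance of 250 bp it was 11.2 points (exact p = 4.84e-06). At the strongest 10% the shares were 17.1% and 15.01% (Fisher's exact test, p = 0.205). The set held 6 of the strongest 20 peaks, 27 of the strongest 100 and 103 of the strongest 500, against 11.0% of all conservative peaks. The strongest peak of all, with a signal of 3073, was an unpaired upstream peak.

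The replicates ranked the peaks of the set alike. Signal was 32.8 to 1515 in replicate 1 (median 103) and 23.4 to 830 in replicate 2 (median 52.8), and its Spearman correlation between the replicates was 0.846 over 825 peaks. The same value was 0.834 over 1357 unpaired upstream peaks. Signals in replicate 1 were a median of 1.88 times those in replicate 2, against 1.78 times for the unpaired upstream peaks. The matched peaks were selected for ranking alike in both replicates, so these values describe peaks that passed that selection. The widest departure was picked after its value was seen. The list of both replicates holds 1 interval at p38a, a stress-activated kinase gene, and CG6178 under 2 entries, both matched to the same replicate 1 peak with a signal of 391. The entry with a signal of 591 was matched to a replicate 2 peak of 200.9, and the entry with a signal of 35.2 to another of 23.4.

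**Figure D1:**
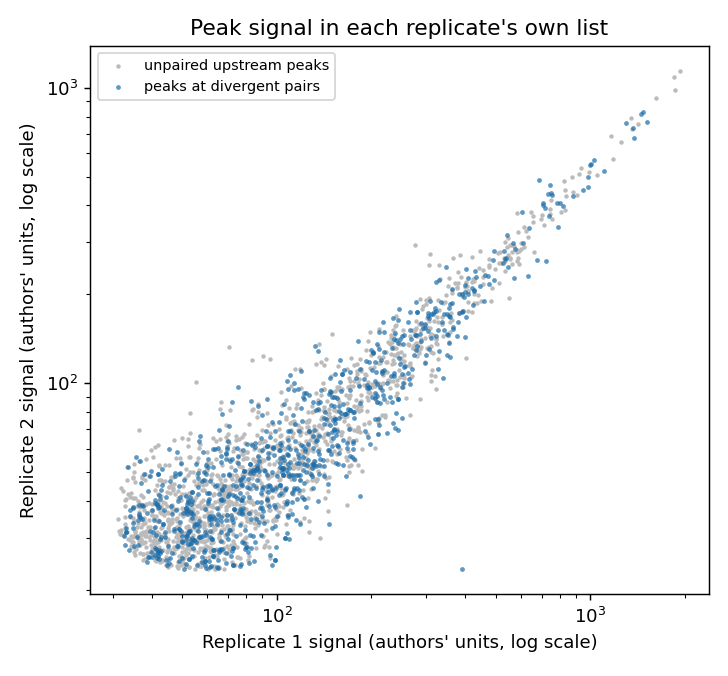
Signal of each peak's matching peak in replicate 1 (x axis) and replicate 2 (y axis), both in the authors' units on log scales, with blue points for peaks at divergent pairs and grey points for unpaired upstream peaks. The blue points follow the same band as the grey ones, and the point at 391 and 23.4, far below it, is the weaker of 2 entries at p38a and CG6178 (391 and 200.9 for the other).

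Replicate 1's own thresholded list overlapped 737 of the 826 peaks (89.2%) by at least 1 bp, against 81.7% of all conservative peaks and 83.5% of the unpaired upstream peaks. The excess of 5.77 points over the unpaired peaks passed Fisher's exact test (p = 0.000161). Replicate 2's own list overlapped 510 (61.7%), against 54.9% of all conservative peaks and 57.2% of the unpaired upstream peaks, a difference of 4.57 points (p = 0.0354, Fisher's exact test). The second difference was 3.13 points (exact p = 0.158) when at least 50% of the peak had to be covered. Both lists held 494 of the peaks, replicate 1's list alone 243, replicate 2's list alone 16 and neither list 73. Overlap followed signal: of the 207 strongest peaks replicate 1's list held all and replicate 2's list all but 2, while of the 207 weakest they held 131 and 33.

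The weakest peaks of the set lay beside stronger ones. All 15 peaks with a signal under 10 overlapped a stronger conservative peak and matched that peak's own replicate peaks, whose signals were 43.4 to 171 in replicate 1 and 24.2 to 81.1 in replicate 2. In all, 44 of the 826 overlapped a stronger conservative peak, and 58 shared both of their replicate peaks with another peak of the set. The 1 pair with 3 peaks was beta4GalNAcTB, a glycosyltransferase gene, and Cpsf100, a subunit of the pre-mRNA cleavage and polyadenylation factor. Its summits had signals of 109, 91.2 and 46.01, and the weaker 2 shared a replicate 2 peak with a signal of 30.5.

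Summits sat between the paired TSSs more often than beside them. Of the 826 summits, 664 (80.4%) lay in the gap, and the median distance to its middle was 59.3 bp. Over all annotated pairs with gaps of at most 500 bp, taking each gene pair's closest TSSs, the gaps held 552 summits in 433.7 kb, or 1.27 per kb (95% exact Poisson interval 1.17 to 1.38). The rest of the sequence within 500 bp of both TSSs held 200 summits in 958.6 kb, or 0.209 per kb (0.181 to 0.240). The density was 6.10 times as high in the gaps (95% interval 5.18 to 7.21). The value was 3.15 with a TSS distance of 250 bp, a setting that shortens the flanks and also leaves out gaps over 250 bp.

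The strand labels of the reference are arbitrary, so the strand of the nearer TSS is a check of the procedure and not a result about Xrp1. The plus-strand TSS was the nearer in 415 peaks and the minus-strand TSS in 405, with 6 ties, and the share of 50.6% did not pass an exact binomial test against equal shares (p = 0.753, 95% interval 47.2% to 54.0%). Relative to each gene's direction, with negative values upstream, the median summit position was -132 bp from the minus-strand TSS and -129 bp from the plus-strand TSS. The nearer TSS was a median of 94.0 bp away.

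Where the summit sat differed between gap classes. In gaps of 1 to 100 bp only 24 of 109 summits (22.0%) lay in the gap, with a median of 52.0 bp to the nearer TSS, so that most lay downstream of the start of one of the genes. In gaps of over 200 and up to 300 bp 240 of 267 (89.9%) lay in it, at a median of 28.5 bp from the middle. In gaps of over 400 and up to 500 bp the median distance to the middle was 105 bp and that to the nearer TSS 123 bp. A gap wider than 500 bp confines qualifying summits to its inside, so the 100% there (75 peaks in all) follows from the rule. In narrower gaps too, the gap makes up more of the qualifying positions as it widens. The part of this in the shares was not tested.

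**Figure D2:**
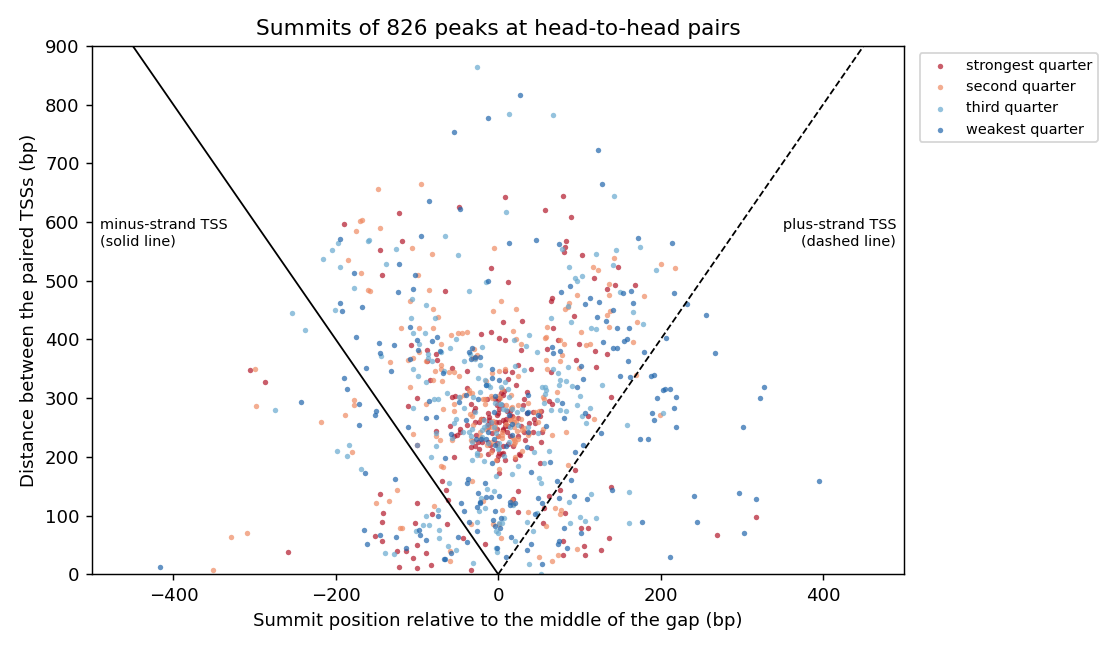
Summit position relative to the middle of the gap (x axis, bp) against the distance between the paired TSSs (y axis, bp) for the 826 peaks, coloured by signal class of 206 or 207 peaks, with the TSSs as a solid and a dashed line. Summits gather near the middle in gaps of 200 to 300 bp and fall outside the lines in most gaps of 1 to 100 bp.

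The narrowest and widest gaps of the set were as follows. The narrowest gap was 1 bp, between Atg6, the Beclin-type autophagy gene, and Pisd, for phosphatidylserine decarboxylase, with a signal of 104 (72.1 in replicate 1 and 34.6 in replicate 2) and a summit 52 bp downstream of the Pisd TSS. Gaps of 8 bp separated CG9588 from Lkb1, an AMPK-activating kinase gene (signal 259, replicates 159 and 101.3), and SerRS, the seryl-tRNA synthetase gene, from CG17260 (signal 494, replicates 308 and 190). The widest gaps were 864 bp between mRNA-cap, the capping enzyme gene, and CG32599, 816 bp between Mondo and crc, and 784 bp between Jheh3, a juvenile hormone epoxide hydrolase gene, and CG43069. Their signals were 139, 28.5 and 99.3. All 3 of these summits lay within 27 bp of the middle of the gap. In gaps this wide only positions around the middle lie within 500 bp of both TSSs, so this follows largely from the rule.

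At the 500 bp limit itself, the farthest qualifying summits lay 496, 488 and 487 bp from the farther TSS, at beta4GalNAcTB and Cpsf100 (signal 46.01), CG14968 and ZnT63C (498) and Strip and Gtpx (4.89). Just beyond it lay summits at 509, 510 and 512 bp, at CG3735 and Taldo (83.0), Nepl19 and Nepl20 (377) and CG9727 and Zif (128).

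The annotation held 2589 head-to-head coding pairs with gaps up to 1000 bp and no noncoding RNA start nearby, with a median gap of 302 bp, and 29.9% of them (773) had a peak of the set. Occupancy was highest at intermediate gaps. It was 30.4% (26.2% to 35.0%) of 424 pairs at 1 to 100 bp and 29.4% (24.8% to 34.5%) of 333 pairs over 100 and up to 200 bp. It was 46.7% (42.5% to 50.9%) of 529 pairs over 200 and up to 300 bp and 40.97% (36.2% to 45.9%) of 393 pairs over 300 and up to 400 bp. It was 30.8% (25.5% to 36.6%) of 263 pairs over 400 and up to 500 bp. Beyond 500 bp it was 20.5%, 5.41% and 1.06% over 3 wider classes. The sequence that can qualify shrinks as the gap widens in all of these classes, also in those up to 500 bp.

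Occupancy of a window whose length does not depend on the gap was also highest at intermediate gaps. Where the TSSs lie relative to this window still changes with the gap. A summit lay within 150 bp of the middle of the gap in 204 of 757 pairs (26.9%, 23.9% to 30.2%) with gaps up to 200 bp, in 413 of 922 (44.8%, 41.6% to 48.02%) with gaps of over 200 and up to 400 bp, and in 108 of 910 (11.9%, 9.93% to 14.1%) with wider gaps. Among the finer classes the order differed, since at over 400 and up to 500 bp this window gave 22.8%, below the values of both classes up to 200 bp. These classes and this window were chosen after the values were seen and were not tested. The median signal of the peaks was also highest at over 200 and up to 300 bp, at 189, against 122 to 150 in the other gap classes up to 800 bp.

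**Figure D3:**
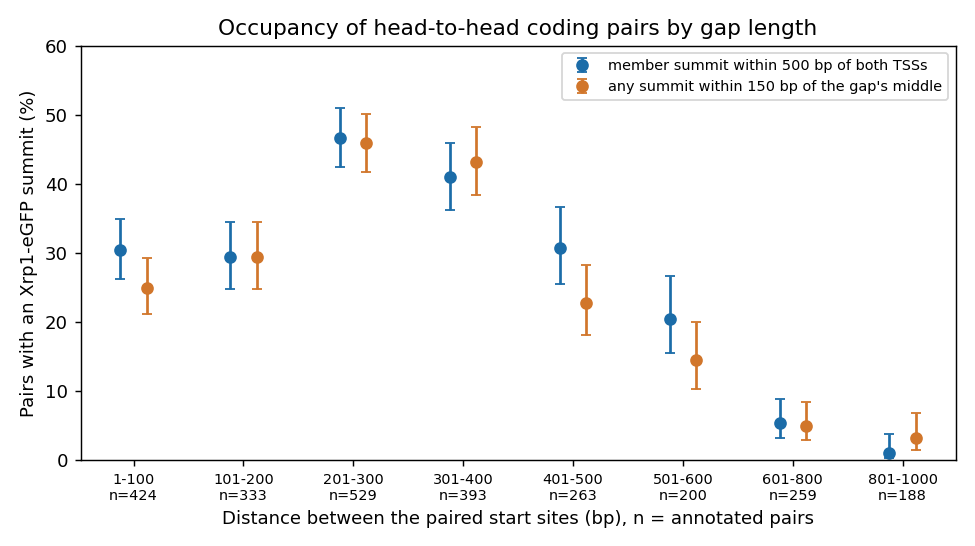
Share of annotated head-to-head pairs with a summit (y axis, percent) by distance between the paired TSSs (x axis, bp), for summits within 500 bp of both TSSs (blue) and within 150 bp of the middle of the gap (orange), with 95% Wilson intervals. Both series are highest between 200 and 400 bp (40.97% to 46.7%) and fall to 1.06% and 3.19% in the widest class, which ends at 1000 bp.

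Paired promoters were occupied more often than unpaired ones over a window of equal length. A summit lay in the 250 bp upstream of the TSS for 639 of 2460 plus-strand genes of head-to-head pairs (25.98%) and for 631 of 8538 unpaired coding genes (7.39%). The difference of 18.6 points passed a two-sided Fisher's exact test (p = 9.44e-122), and it was 6.50 points with 100 bp and 21.3 points with 500 bp. The window of a paired gene began at its TSS closest to the partner, and that of an unpaired gene at its 5′-most TSS. With the 5′-most TSS of each gene in both classes the difference was 17.6 points. At a median gap of 302 bp the window of a paired gene also covers much of the upstream sequence of its partner. The genes' expression in these embryos was not measured, and its part in the difference was not tested.

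Along the arms, the share of annotated pairs with a peak was 32.8% of 479 on 2L, 27.4% of 532 on 2R, 33.7% of 504 on 3L, 31.04% of 670 on 3R and 23.1% of 394 on X. Arm 4 had 1 occupied pair of 10.

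The sequence under the summits was AT-rich, and the sequence 400 bp away was less so. Median GC content of the summit window (50 bp on each side) was 29.7%, against 48.5% in windows 400 bp away, and in 646 of the 826 peaks (78.2%) the summit window was lower in GC than both flanking windows. The unpaired upstream peaks had a median of 32.7% at the summit and 42.6% in the flanks, with 767 of 1366 (56.2%) below both. In the set the farther TSS was a median of 190 bp from the summit (upper quartile 297 bp). Both flanks of most peaks of the set thus lay downstream of a paired TSS. An unpaired upstream peak has coding TSSs of a single strand within 500 bp, the nearest of them downstream of the summit. The part of this difference in the flank GC and in the shares below both flanks was not tested. A GC content under 30% was found in 445 windows of the set (53.9%), against 42.7% of all conservative peaks and 40.9% of the unpaired upstream peaks. This limit was set after the values were seen, so no test is given.

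Of 13 sequence words searched on both strands of the summit windows, 3 differed between the set and the unpaired upstream peaks at an adjusted p under 0.05 (Fisher's exact test, Benjamini-Hochberg over 13). The words were TTGCGCAA, TTGCNNAA (which contains the former), TTGCATCA, TTACGTAA, TGACGTCA, the AP-1-type word TGANTCA, the DRE core TATCGATA, the core promoter word GGTCACACT, the E-box words CAGCTG and CACGTG, the GAGA factor word GAGAGAG, the box-like word TATAAA from core promoters and the run AAAAAA. TATCGATA, the DRE core, was in 41 windows of the set (4.96%) and 2.34% of the unpaired ones, with 1.21% over all conservative peaks (adjusted exact p = 0.00555). TATAAA, which resembles the TATA box, was in 233 windows (28.2%) against 21.6%, with 23.3% over all peaks (adjusted exact p = 0.00356). GAGAGAG, the word of GAGA factor, was in 4 windows (0.484%) against 2.86%, with 1.43% over all peaks (adjusted exact p = 0.00054).

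These calls depended on how the windows were drawn. With 100 bp on each side of the summit all 3 passed with larger differences, of 7.20 points for TATCGATA (adjusted exact p = 5.28e-09), -6.15 for GAGAGAG (adjusted exact p = 1.48e-12) and 7.91 for TATAAA (adjusted exact p = 0.00102). With 25 bp on each side of the summit none of the 3 passed, at 0.864, -1.08 and 1.89 points in the same order. With only the 5′-most TSS of each gene none passed either, at 2.56, -1.44 and 5.35 points (adjusted exact p = 0.0552, 0.0552 and 0.0555). TATCGATA differed by -0.129 points (adjusted exact p = 1.0) with a TSS distance of 250 bp. For TATCGATA the difference was 0.995 points (adjusted exact p = 0.385) in replicate 1's own list and 0.549 points (adjusted exact p = 0.815) in replicate 2's. In replicate 2's list TATAAA missed the threshold too (adjusted exact p = 0.23). The set is lower in GC than the unpaired upstream peaks. Its peaks also have coding TSSs on both strands within 500 bp, and the unpaired upstream peaks on 1 strand alone. The parts of base composition and of the number and distance of TSSs in these shares were not tested.

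The C/EBP-type word TTGCNNAA was in 81 windows of the set (9.81%), in 9.37% of the unpaired upstream windows and in 9.0% of all conservative peaks (adjusted exact p = 0.903). It was in 7.07% of windows of the same length directly upstream of all coding TSSs. In the set its median distance to the summit was 21.5 bp. AAAAAA was in 30.3% of windows against 26.6% (27.3% over all peaks, adjusted exact p = 0.181), and GGTCACACT, the core promoter word bound by M1BP, in 1.57% against 0.586% (0.385% over all peaks, adjusted exact p = 0.126). Over the windows directly upstream of all coding TSSs, TATCGATA was in 5.204%, TATAAA in 18.2% and GAGAGAG in 3.49%.

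The strong and the weak peaks of the set held different words. TATCGATA was in 0 of the 207 strongest windows, which allows a share of up to 1.82% by the Wilson interval, in 5 of the next 206, in 13 of the next 206 and in 23 of the 207 weakest (11.1%, 7.52% to 16.1%). TATAAA ran the other way, from 71 and 75 windows in the stronger classes to 51 and 36 in the weaker ones. TTGCNNAA was in 27, 20, 18 and 16. Median GC content was 25.7%, 27.7%, 30.7% and 37.6% over the same classes. Position differed too, with medians of 103, 102.5, 91.0 and 66.0 bp to the nearer TSS. The share of summits in the gap was 82.1%, 86.9%, 84.5% and 68.1%. The part of position in the word shares and GC was not tested. At the same signal limits, the unpaired upstream peaks had TATCGATA in 1 of 302, 6 of 282, 6 of 339 and 19 of 443 windows, and median GC of 27.7%, 30.7%, 34.7% and 39.6%. They had TATAAA in 96, 72, 63 and 64 windows and TTGCNNAA in 9.93%, 7.80%, 7.67% and 11.3%. The split by signal was chosen after the values were seen and was not tested.

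**Figure D4:**
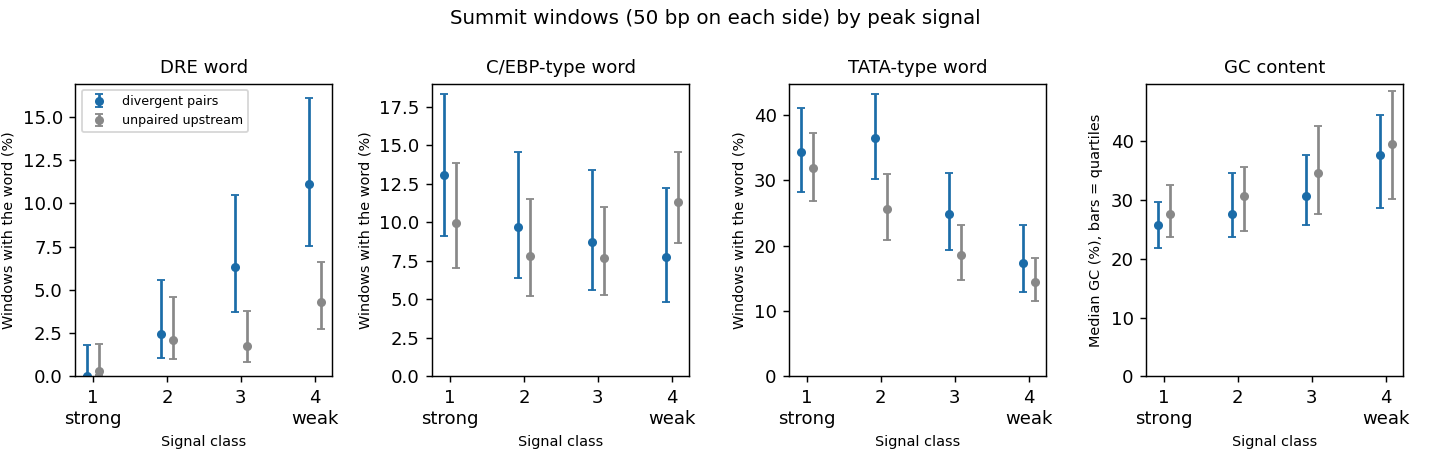
Share of summit windows (50 bp on each side) with the DRE, C/EBP-type and TATA-type words (y axes, percent, 95% Wilson intervals) and median GC content (percent, bars from the lower to the upper quartile) in 4 signal classes from strong to weak (x axes), for peaks at divergent pairs (blue) and unpaired upstream peaks (grey). In the blue series the DRE word goes from 0 of 207 strong windows to 23 of 207 weak ones, while median GC goes from 25.7% to 37.6%.

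Windows placed by the annotation alone gave a further comparison. The sequence up to 150 bp on each side of the middle of the gap was compared between the 773 occupied pairs and 1594 pairs with no conservative summit within 500 bp of either TSS, and 5 of the 13 words differed (Fisher's exact test with Benjamini-Hochberg adjustment). TATCGATA was in 17.7% of occupied and 12.4% of unoccupied pairs (13.5% of all 2589 pairs, adjusted exact p = 0.00218), and CAGCTG, an E-box, in 24.6% and 18.1% (19.8% of all, adjusted exact p = 0.00166). TATAAA was in 56.8% and 49.0% (51.3% of all, adjusted exact p = 0.00166), and AAAAAA in 62.0% and 54.8% (58.1% of all, adjusted exact p = 0.00234). GAGAGAG was the 1 word called rarer at occupied pairs, at 1.29% against 3.89% (3.21% of all, adjusted exact p = 0.00166). TTGCNNAA was in 26.8% and 24.7% (25.8% of all, adjusted exact p = 0.498). Occupied pairs had a median gap of 265 bp and unoccupied pairs 314 bp, and the part of gap length in these shares was not tested. With 75 bp on each side, CAGCTG differed by -1.93 points (adjusted exact p = 0.367) and TATCGATA by 0.336 points (adjusted exact p = 0.86), while TATAAA, the A run and the GAGA word still passed. At a TSS distance of 250 bp TATAAA and the A run no longer passed (5.001 and 4.80 points, both adjusted exact p = 0.143), at 1000 bp the GAGA word did not (-1.25 points, adjusted exact p = 0.18), and with the peaks of replicate 2 alone TATCGATA did not (2.51 points, adjusted exact p = 0.323).

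Of all coding genes on the arms 35.2% belonged to an annotated head-to-head pair, and 31.5% of the genes in such pairs had a peak of the set at their pair. The 16 gene lists read below are set against this share and were not tested. Between 28.6% and 83.3% of a list's head-to-head genes had a peak, and the lists overlap.

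Among genes of translation, 57 of 73 mitochondrial ribosomal protein genes lay in head-to-head pairs, and 26 of the 57 (45.6%) had a peak, including mRpS10, mRpS23 and mRpL23 above. For cytosolic ribosomal protein genes it was 21 of 55 (38.2%), with the strongest at RpL34b, RpL32 and RpS20, with signals of 575, 453 and 392. For aminoacyl-tRNA synthetase genes it was 13 of 24 (54.2%). GluProRS, which charges both glutamate and proline tRNAs, had a signal of 585 (382 in replicate 1 and 200 in replicate 2), IleRS 523 (358 and 168) and SerRS 494. Translation initiation factor genes were at 6 of 21 (28.6%), with eIF3h, eIF3m and eIF3a at 227, 134 and 111. In tRNA modification genes it was 7 of 17 (41.2%), with Tcs5 and Elp5 above and Trmt6, a subunit of a tRNA methyltransferase, at 596.

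The stress and integrated stress response list had 23 genes, of which 6 were in head-to-head pairs and 5 of these had a peak. Irbp18, whose product is the dimerisation partner of Xrp1, shares its promoter region with APP-BP1, and the summit lay 166 bp upstream of the Irbp18 TSS, with a signal of 420 (262 in replicate 1 and 161 in replicate 2). Gcn2, the eIF2α kinase that senses amino acid shortage, is paired with Ugt35D1 and had a signal of 263 (135 and 129). Ire1, the endoplasmic reticulum stress sensor, is paired with Mrm2 and had 145 (112 and 36.2), and Keap1, the adaptor that restrains the antioxidant factor CncC, had 110 (58.8 and 49.9). The peak at crc, the fly ATF4 gene, and Mondo, a sugar-sensing factor gene, had a low signal of 28.5 in the joint list, although its matching replicate peaks had 60.8 and 42.6.

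Genes of gene expression machinery included Polr2B, the second largest RNA polymerase II subunit, paired with 140up, with a signal of 669 (433 in replicate 1 and 228 in replicate 2). RNA polymerase subunit genes had a peak in 9 of 19 head-to-head genes (47.4%), with Polr2H at 326 and Polr2J at 321. Mediator and TFIID genes were at 10 of 30 (33.3%), with Taf5 at 566, MED27 at 494 and MED30 at 421. Integrator and exosome genes were at 8 of 18 (44.4%), with IntS9 at 387, IntS6 at 377 and Csl4, an exosome subunit, at 249.9. Nucleoporin genes were at 5 of 17 (29.4%), with Nup133 at 268, Nup160 at 249.9 and Nup98-96 at 227; Csl4 and Nup160 are partners of 1 pair and share that peak. Chromatin and insulator genes were at 7 of 11 (63.6%), with Chro above, E(z), the histone H3 methyltransferase of Polycomb repression, at 728 and pzg, a partner of Dref, at 285.

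In genome maintenance, 10 of 23 head-to-head DNA repair genes (43.5%) had a peak. The gene of the Ku70 homologue Irbp, paired with mgr, had a signal of 684 (474 in replicate 1 and 216 in replicate 2), mei-41, the fly ATR kinase gene, 584 (395 and 197) and Rev1, a translesion polymerase gene, 421. Rev1 and MED30 are the 2 genes of 1 pair. Replication and cell cycle genes were at 10 of 25 (40%), with dpa, an MCM helicase subunit, at 223, Bub3, a spindle checkpoint gene, at 221 and Mcm2 at 172. Mcm2 is paired with RPA1, which binds single-stranded DNA during replication.

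Among genes of energy and turnover, oxidative phosphorylation genes were at 16 of 47 (34.0%), with ND-ASHI, paired with the fumarase gene Fum1, at 537, ND-24 at 388 and ND-MWFE at 371. Proteasome genes were at 8 of 26 (30.8%), with Rpn3 at 426, Prosbeta2 at 194 and Rpn5 at 166. Prosbeta2 is paired with mRpL39, a mitochondrial ribosomal protein gene. Autophagy genes were at 8 of 16 (50%), with the lipid transfer protein gene Atg2 at 411, Atg7, for the activating enzyme of the pathway, at 371 and Atg9 at 311.

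**Figure D5:**
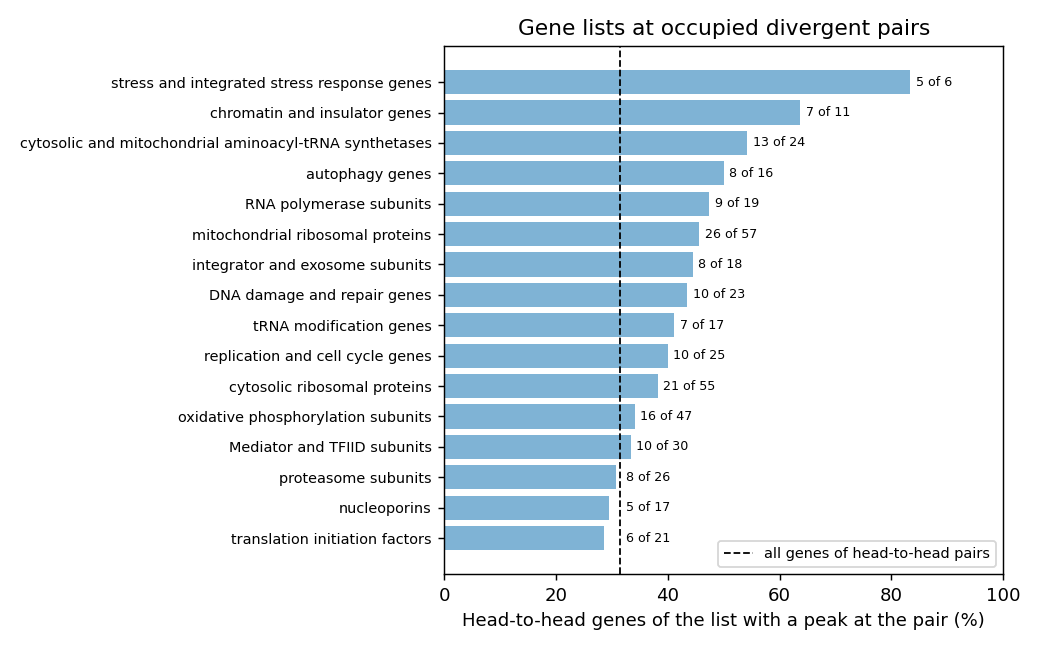
Share of the head-to-head genes of each of 16 gene lists that had a peak of the set at their pair (x axis, percent), with the counts beside the bars and a dashed line at 31.5%, the share over all genes of such pairs. Shares run from 28.6% for translation initiation factors (6 of 21) to 83.3% for the stress list (5 of 6).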

How the data were processed

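The deposited files are peak lists made with the irreproducible discovery rate (IDR), a measure of how well the ranks of peaks repeat between replicates. Reads had been aligned to dm6 and peaks called with control alignments, per the labels and the notes deposited with the files. The tools and versions of both steps were not given in the sources used here, and neither was the depth. Peak signal is the value deposited by the authors, and how they scaled it is not stated. The −log10 of the global IDR was read from the deposited ranked list, and conservative peaks have a global IDR of at most 0.01. Signals per replicate were taken by matching the compared peaks of the ranked list to each replicate's own ranked list.

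Summits were placed on TSSs of Ensembl release 115 (transposable elements left out) and on the RefSeq dm6 sequence. Unpaired upstream peaks have coding TSSs of 1 strand alone within 500 bp, of which the nearest lies downstream of the summit. Shares carry 95% Wilson intervals, and differences between classes of peaks used two-sided Fisher's exact tests. Word tests were adjusted over 13 words. The genes named are the 15 strongest peaks of the set, up to 3 per list (all 5 for the stress list, a choice made after its values were seen), the 3 widest and 3 narrowest gaps, the pair with most peaks and the peaks nearest the 500 bp limit. The members, words and gene lists were chosen with earlier results of these data known. List names were matched to annotated symbols, and Rrp1, an AP endonuclease whose symbol resembles those of exosome genes, was left out after its value was seen. Simulated data were used to check the word tests, on windows of equal GC content in both groups, and the classing of peaks, but not the other procedures. Each alternative changed 1 choice. The software was pandas 2.3.3, SciPy 1.17.1, NumPy 2.4.6 and matplotlib 3.10.9 under Python 3.11.15.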

Additional observations from a re-analysis of the deposited data

Results flagged for a closer look

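The conservative list lacks 148 peaks of the ranked list on these arms whose global IDR is at most 0.01, and 14 of them meet the rule for divergent pairs. The strongest lay between eIF4EHP, a cap-binding translational repressor gene, and CG18428, with a signal of 1342, 897 in replicate 1 and 449 in replicate 2. The next lay between Sirt6, a sirtuin gene, and pont, a chromatin remodelling ATPase gene, with a signal of 865, 626 in replicate 1 and 241 in replicate 2. The other 12 had signals of 67.9 to 204. Why these peaks are missing was not tested, and they are in no count above.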

How the results depend on the processing

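Of the 173 values recomputed under an alternative, 135 kept their direction and side of the threshold or stayed within the range set for them. The values below come from the same exact tests and are in percentage points unless said otherwise. The value for the nearer TSS is the plus-strand share's difference from equal shares. With the peaks called in 1 replicate alone, the set held 523 to 848 peaks, the strong peak share differed by 1.31 to 3.44, the nearer TSS by -0.288 to 0.238, and 1 to 2 summit words were called. With a TSS distance of 250 bp there were 546 peaks, a density ratio of 3.15 and a nearer TSS value of -0.556. At this distance 3 words were called at pairs, and TATCGATA at summits gave -0.129. The same distance gave larger differences for the strong peak share (11.2) and the replicate 2 list share (9.18), as did all other conservative peaks as the comparison class (11.1 and 7.67). With 1000 bp the density ratio was 7.40, the strong peak share differed by 2.17 and the replicate 2 list share by 1.99. A global IDR of at most 0.005 gave 2.01, 3.85 and, for the nearer TSS, -1.27. With 1 summit per merged region the nearer TSS gave -1.55. The strongest 10% gave 2.06, and an overlap of 50% gave 3.13 for the replicate 2 list share. No summit word (0) was called with 25 bp on each side or the 5′-most TSS of each gene, and 3 words were called at pairs with 75 bp on each side, where CAGCTG gave -1.93. The causes were not tested. The upstream window difference and the replicate 1 list share passed under all of their alternatives. No paired analysis was possible because the series has a lone group. Depth is unknown, so no limit from it can be given.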

Other observations

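The second thresholded list of both replicates, which the counts above do not use, held 911 peaks by the same rule, and 120 of its pairs were absent from the conservative list. Among ranked peaks with a global IDR above 0.05, 1282 of 78984 (1.62%) lay at divergent pairs.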
